A study of Mus musculus with 11 samples.

Results

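The genes described are those whose array name begins with Nduf, the name given to nuclear genes of mitochondrial complex I. All probes other than control probes were searched for such a name, which gave 42 genes with 50 probes, of 36413 names with 55681 probes on the array. The rule reads the name alone, but the family was picked with earlier results of these data known. All 42 genes were detected on each of the 11 arrays. Of these genes, 36 encode subunits of complex I, 4 encode assembly factors, and Ndufa4 and Ndufa4l2 carry the name although their products are not counted among the subunits today.

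Complex I is the entry of the respiratory chain. It takes electrons from NADH, passes them through a flavin and a row of iron-sulfur clusters to ubiquinone, and pumps protons across the inner mitochondrial membrane. Its peripheral arm has an NADH-oxidizing tip, the N module, and a ubiquinone-reducing base, the Q module, and its membrane arm carries the proton pumps, which are encoded by mitochondrial DNA. In the vessel wall it is also a known source of mitochondrial superoxide.

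RNA was measured in the descending aorta of male C57BL/6 mice aged 20 months, 1 mouse per one-color array. The 5 nitrate treated mice had drunk water with 1 g/L NaNO3 over 8 weeks. The 6 controls were old mice of the same strain, which by the paper drank sodium chloride at an equal concentration, while their labels name no sodium chloride and refer to earlier samples. By the paper each group had 6 mice, and the sixth nitrate treated mouse is not part of what is described. The whole vessel was used after fat had been cleaned off, so that a lower signal from fewer cells of a type and one from less RNA per cell cannot be told apart. The arrays lay on 3 slides, each with mice of both groups. All controls lay in column 3 of their slide and no nitrate array did, so column and treatment cannot be told apart. Between 24760 and 28654 probes were detected on a control array and between 24864 and 26904 on a nitrate array, and control 1 had the highest signal of all mice in 41 of the 42 genes. With so few arrays, the precision of each value is limited.

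Nuclear genes of the respiratory chain are known targets of the transcription factors NRF1, of the ETS family and of the estrogen-related receptors. The 250 bases before the start site were read from RefSeq promoters of GRCm38.p6 for 37 of the 42 genes, in 39 windows. The other 5 genes, Ndufa2, Ndufa4l2, Ndufb9 and Ndufs1 among them, had no entry. Motifs were searched on both strands. With the letters searched first, the NRF1 palindrome with a fixed middle was found in 2 of the 39 windows (5.13%, against 0.782% of all 32851 windows), CCGGAAGT for ETS factors in 0 (0%, against 2.88%) and TNAAGGTCA for the estrogen-related receptors in 1 (2.56%, against 1.14%). Shorter letters were then tried because so few windows had matched, and their shares were chosen with the first result known. The NRF1 palindrome with 1 free base in the middle was found in 8 windows of 7 genes (20.5%, against 3.74% of all windows), CCGGAAG in 4 windows (10.3%, against 6.91%) and AAGGTCA in 3 (7.69%, against 4.08%). The ETS letters were thus rarer than in all windows in the longer form and more frequent in the shorter form, and no reading is made from either. Of the 9 genes that fell under the thresholds used below, 6 had a window, and 0 of these held any of the motifs in either form. A missing match says only that these letters are not in the window. Shown here are the windows of Ndufa10, which had the largest difference between the groups, and of Ndufb4, which had the most matches, with matches to the shorter letters in capitals (chr1:92473759-92474008 and chr16:37654369-37654618, both on the minus strand and written 5′ to 3′).
Ndufa10: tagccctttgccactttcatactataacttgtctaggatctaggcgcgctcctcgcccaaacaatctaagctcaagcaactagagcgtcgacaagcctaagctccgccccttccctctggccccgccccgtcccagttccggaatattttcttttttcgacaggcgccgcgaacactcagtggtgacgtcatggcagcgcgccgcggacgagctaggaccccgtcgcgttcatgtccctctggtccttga
Ndufb4: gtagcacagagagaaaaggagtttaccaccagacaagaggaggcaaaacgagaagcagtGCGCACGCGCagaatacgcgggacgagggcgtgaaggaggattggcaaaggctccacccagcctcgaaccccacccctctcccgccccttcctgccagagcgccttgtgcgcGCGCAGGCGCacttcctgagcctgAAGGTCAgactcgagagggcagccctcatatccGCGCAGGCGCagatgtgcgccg

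The comparison asked whether transcripts of complex I differed between old mice with and without nitrate. The signal was lower in nitrate treated mice in 41 of the 42 genes, where 45.4% of all detected names were lower. The median difference was -0.21 on the log2 scale, against 0.02 over all 18294 detected names. The thresholds of the study's methods were a fold change above 1.2 together with a P value under 0.05 before adjustment, here from the moderated test of limma. By these, 9 genes fell and 0 rose, where 4.62% of all detected names fell and 4.27% rose. The same shares of all names stand beside the counts of each list below that use all mice. Counted by probe, 9 of the 50 fell, against 4.85% of all detected probes that fell and 4.16% that rose. Among these were Ndufa10, Ndufb8, Ndufs1, Ndufa9, Ndufa12, Ndufv1, Ndufs7 and Ndufb9. A further 5 genes, Ndufa1, Ndufa2, Ndufa4l2, Ndufa7 and Ndufb4, had an unadjusted P value under 0.05 with a smaller fold change, which makes 14 in all, where 6.43% of all names were lower at that P value and 8.04% were higher. After Benjamini-Hochberg adjustment over the 23632 detected probes, 0 of the 42 genes passed 0.05 in the limma fit, as did 0.00547% of all names, and their smallest adjusted P value was 0.194. In exact permutation tests over the 462 divisions of the mice, 11 genes were lower with an unadjusted P value under 0.05, 9 of them also in limma's test, where 6.18% of all names were lower by the permutation test. Leaving out a mouse changed the number of genes that fell from 9 to 2 without nitrate treated mouse 1 (3.61% of all names fell) or mouse 2 (3.33%), to 5 without mouse 3 (4.02%), to 4 without control 1 (3.27%) and to 19 without nitrate treated mouse 5 (5.31%). Leaving out the 4 arrays of slide 1 changed it to 0, with 2.04% of all names, and leaving out those of slide 3 to 28, with 6.55%.

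**Figure D1:**
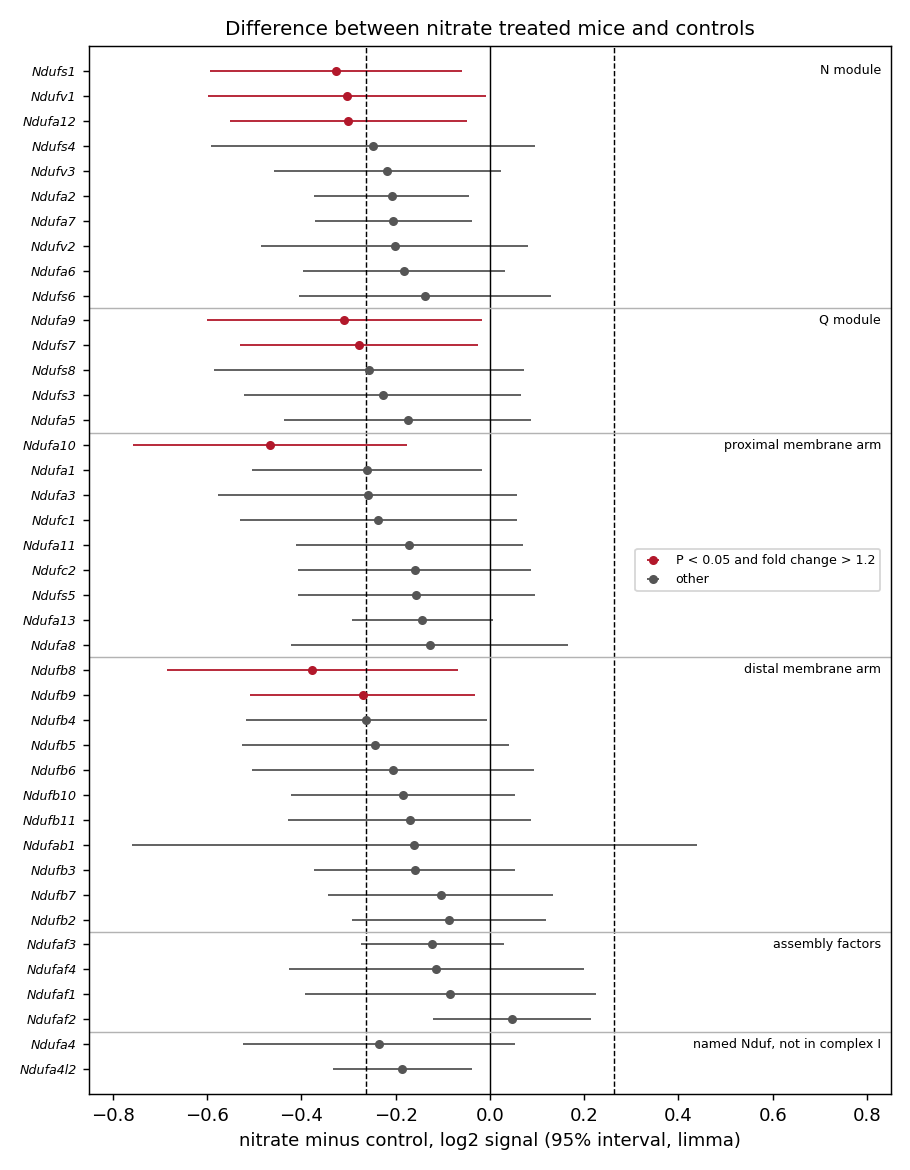
Difference in log2 signal between nitrate treated mice (n = 5) and controls (n = 6) for 41 of the 42 genes, by place in the complex. Points are differences from limma, lines their 95% intervals, dashed lines a fold change of 1.2, and red marks genes that passed both thresholds. All points but that of Ndufaf2 lie below 0.

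The N module holds the site where NADH is oxidized. All 10 of its detected genes had lower signals in nitrate treated mice, 5 with an unadjusted P value under 0.05, and 3 fell under both thresholds. The median difference was -0.21. With 1 mouse left out between 0 (without nitrate treated mouse 1 or 2) and 4 (without mouse 5) fell, and 1 without control 1. Ndufs1, the largest subunit of the complex, holds several iron-sulfur clusters. Its log2 signal was 12.94, 12.93, 13.12, 13.35 and 13.50 in nitrate treated mice 1 to 5 and 13.69, 13.48, 13.49, 13.67, 13.43 and 13.20 in controls 1 to 6. Mice 1, 2 and 3 lay below every control, while mice 4 and 5 lay within the range of the controls. The means were 13.17 ± 0.25 (SD, n = 5) and 13.49 ± 0.18 (SD, n = 6), a difference of -0.33 (p = 0.0390 in an exact two-sided permutation test). Its probe is placed at 63190360 to 63190419 of chromosome 1 in mm9. Ndufv1 binds NADH and the flavin. It had 14.34, 14.30, 14.42, 14.82 and 14.90 in nitrate treated mice and 15.09, 14.94, 14.85, 14.91, 14.88 and 14.50 in controls. It fell by 0.30 (exact permutation test, p = 0.0584) with all mice, but no longer passed in 8 of the 11 fits that left out 1 mouse, namely nitrate treated mouse 1, 2 or 3 or any of controls 1 to 5, with differences from -0.31 to -0.24. Again mice 1 to 3 were the lowest, and control 6 lay nearest to them. The accessory subunit Ndufa12 fell by 0.30 (exact permutation test, p = 0.0390). Ndufs1 did not pass without nitrate treated mouse 1 (-0.27) or 2 (-0.27), nor Ndufa12 without nitrate treated mouse 1 (-0.26), mouse 2 (-0.24) or control 1 (-0.24). Ndufv2, a core subunit with an iron-sulfur cluster, had a difference of -0.20 that did not pass (exact permutation test, p = 0.186). Without control 1 its difference was -0.11.

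Ndufa2 and Ndufa7 are small accessory subunits of the same module. For Ndufa2 the log2 signal was 14.49, 14.39, 14.48, 14.56 and 14.57 in nitrate treated mice and 14.97, 14.65, 14.61, 14.67, 14.63 and 14.69 in controls. Every nitrate treated mouse lay below every control, and control 1 lay above the other controls. The difference was -0.21 (two-sided exact permutation test, p = 0.00216, the smallest that the test can give). Such a separation with lower signals in nitrate treated mice was found in 2 of the 42 genes, the other being Ndufa4l2, and in 1.16% of all detected names. Ndufa7 had a difference of -0.21 with overlapping groups (exact permutation test, p = 0.0152).

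In the Q module, which hands the electrons to ubiquinone, all 6 genes were lower and 3 fell, or 1 without nitrate treated mouse 1, 2 or 3 or control 1 or 2 and 5 without mouse 5. The median difference, -0.27, was the lowest of the modules, though the modules were not tested against each other. Ndufs7, which carries the last iron-sulfur cluster before ubiquinone, fell by 0.28 (exact permutation test, p = 0.0649), and Ndufa9, an accessory subunit at the base of the arm, by 0.31 (exact permutation test, p = 0.0649). For both, limma's unadjusted P value was below the threshold and the permutation P value was not. Ndufs7 did not pass in 5 of the 11 fits without 1 mouse (nitrate treated mouse 1, 2 or 3, control 1 or 2), with differences from -0.27 to -0.21, and Ndufa9 in 7 (the same 5 mice and controls 3 and 4), from -0.31 to -0.24. Ndufs8, with a pair of iron-sulfur clusters, had a difference of -0.26 and Ndufs3 one of -0.23, neither of which passed. Without control 1 these differences were -0.14 and -0.15. Of the 7 core subunits encoded in the nucleus, spread over both modules, all were lower and 4 fell, with a median of -0.28. Without nitrate treated mouse 1 or 2 it was 1 that fell, without mouse 3 or control 1 or 2 it was 2, and without mouse 5 it was 6.

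The accessory subunits of the membrane arm surround the proton pumps. Next to the Q module, all 9 genes were lower, 2 had an unadjusted P value under 0.05 and 1 fell, with a median of -0.17. With 1 mouse left out between 1 and 4 fell, 4 of them without nitrate treated mouse 5, and the median was -0.10 without control 1. The gene that fell with all mice, Ndufa10, had the largest difference of all 42. Its log2 signal was 12.02, 11.83, 12.07, 12.15 and 12.34 in nitrate treated mice 1 to 5 and 13.01, 12.65, 12.47, 12.57, 12.37 and 12.23 in controls 1 to 6. Control 6 lay between nitrate treated mice 4 and 5, and the other controls lay above all nitrate treated mice. The means were 12.08 ± 0.18 (SD, n = 5) and 12.55 ± 0.27 (SD, n = 6), a difference of -0.47 with a 95% interval from -0.76 to -0.18, or 1.38-fold lower (exact permutation test, p = 0.00866). After adjustment the limma fit gave it 0.194. Its probe is placed between 94361039 and 94363996 of chromosome 1 in mm9. Ndufa10 passed both thresholds with each of the 11 mice left out in turn, but not without the 4 arrays of slide 1 (-0.22). Ndufa1, a short subunit that spans the membrane, had a difference of -0.26 (exact permutation test, p = 0.0758).

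At the far end of the membrane arm all 11 genes were lower, 3 had an unadjusted P value under 0.05 and 2 fell, with a median of -0.18. Without nitrate treated mouse 1 or 2 it was 0 that fell, without mouse 3 or control 1 it was 1, without mouse 4 it was 4 and without mouse 5 it was 5, and without control 1 the median was -0.12 with 10 lower. The accessory subunit Ndufb8 is often used as a protein marker of assembled complex I. It had 14.76, 14.61, 14.94, 15.16 and 15.23 in nitrate treated mice and 15.76, 15.25, 15.37, 15.31, 15.17 and 15.04 in controls. Mice 4 and 5 reached into the range of the controls. The difference was -0.38 (exact permutation test, p = 0.0325). Ndufb8 did not pass without nitrate treated mouse 1 (-0.33) or 2 (-0.30). Ndufb9 fell by 0.27 (exact permutation test, p = 0.0433) and did not pass without nitrate treated mouse 1 (-0.24), 2 (-0.22) or 3 (-0.26) or control 1 (-0.20), and Ndufb4 had a difference of -0.26 (exact permutation test, p = 0.0758). Ndufab1, the mitochondrial acyl carrier protein, was measured by a dim probe whose values varied most. It had 8.80, 8.28, 8.77, 8.84 and 9.36 in nitrate treated mice and 10.13, 8.76, 9.00, 8.82, 8.50 and 8.59 in controls. Control 1 was the control that lay above all nitrate treated mice, and the difference was -0.16 with a standard error of 0.27 and 0.07 without control 1. A brighter probe that the files describe as this gene but name by a transcript identifier, ENSMUST00000106471, had 14.13 ± 0.26 (SD, n = 5) after nitrate. The controls had 14.37 ± 0.22 (SD, n = 6) with that probe, and the difference of -0.24 did not pass. The wide spread was that of the dim probe.

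Assembly factors join the parts of the complex and are not in the finished enzyme. Of the 4 with an Nduf name 3 were lower and 0 passed, with a median of -0.10. Without control 1 the median was 0.0038 and 2 were lower, and without nitrate treated mouse 2 it was -0.06. Ndufaf2, which resembles Ndufa12 and holds its place during assembly, was the gene that was not lower. It had 9.87, 9.85, 9.91, 9.87 and 10.13 in nitrate treated mice and 10.06, 9.93, 9.87, 9.88, 9.73 and 9.80 in controls. The groups overlapped almost fully, with a difference of 0.05 (exact permutation test, p = 0.496). Of 14 detected assembly factors with other names 12 were lower and 1 fell, with a median of -0.10 that was -0.02 without control 1, -0.05 without nitrate treated mouse 1 or 2 and -0.16 without mouse 5. The gene that fell, where 4.62% of all names did, was Chchd4, which imports proteins into the intermembrane space. Its difference was -0.33 (exact permutation test, p = 0.00866), and without slide 1 it was -0.13 and did not pass. Without slide 1, 3 of the 14 genes were lower, with a median of 0.06. A list of 5 complex I genes that the array holds under older names had a median of -0.02, which lay between -0.06 and 0.01 with 1 mouse left out, and 0 passed, or 1 without control 2, control 6 or nitrate treated mouse 5.

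Ndufa4 is now counted as a subunit of complex IV, and Ndufa4l2 is a related gene known to be induced by hypoxia. Ndufa4 had a difference of -0.23 (exact permutation test, p = 0.115), which was -0.14 without control 1. Ndufa4l2 had 8.83, 9.08, 9.06, 8.98 and 9.10 in nitrate treated mice and 9.31, 9.15, 9.22, 9.11, 9.23 and 9.17 in controls. The groups did not overlap, although nitrate treated mouse 5 and control 4 nearly met. The difference of -0.19 was below the limit on the fold change (exact permutation test, p = 0.00216).

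At both ends the heat map shows the same mice in most genes. Control 1 had the highest signal of the 11 mice in 41 of the 42 genes, against 17.4% of all names, and nitrate treated mouse 2 the lowest in 32, against 9.90%. The mean over the 42 genes, relative to all mice, was 0.48 in control 1 and between -0.07 and 0.07 in the other controls. It was -0.24, -0.32, -0.18, 0.02 and 0.14 in nitrate treated mice 1 to 5. Mice 1 to 3 thus lay below all controls, and mice 4 and 5 did not. Without control 1 the median difference was -0.13, 39 of 42 genes were lower, where 46.6% of all names were, and 4 genes fell, Ndufa10, Ndufb8 and Ndufs1 among them, where 3.27% of all names fell.

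**Figure D2:**
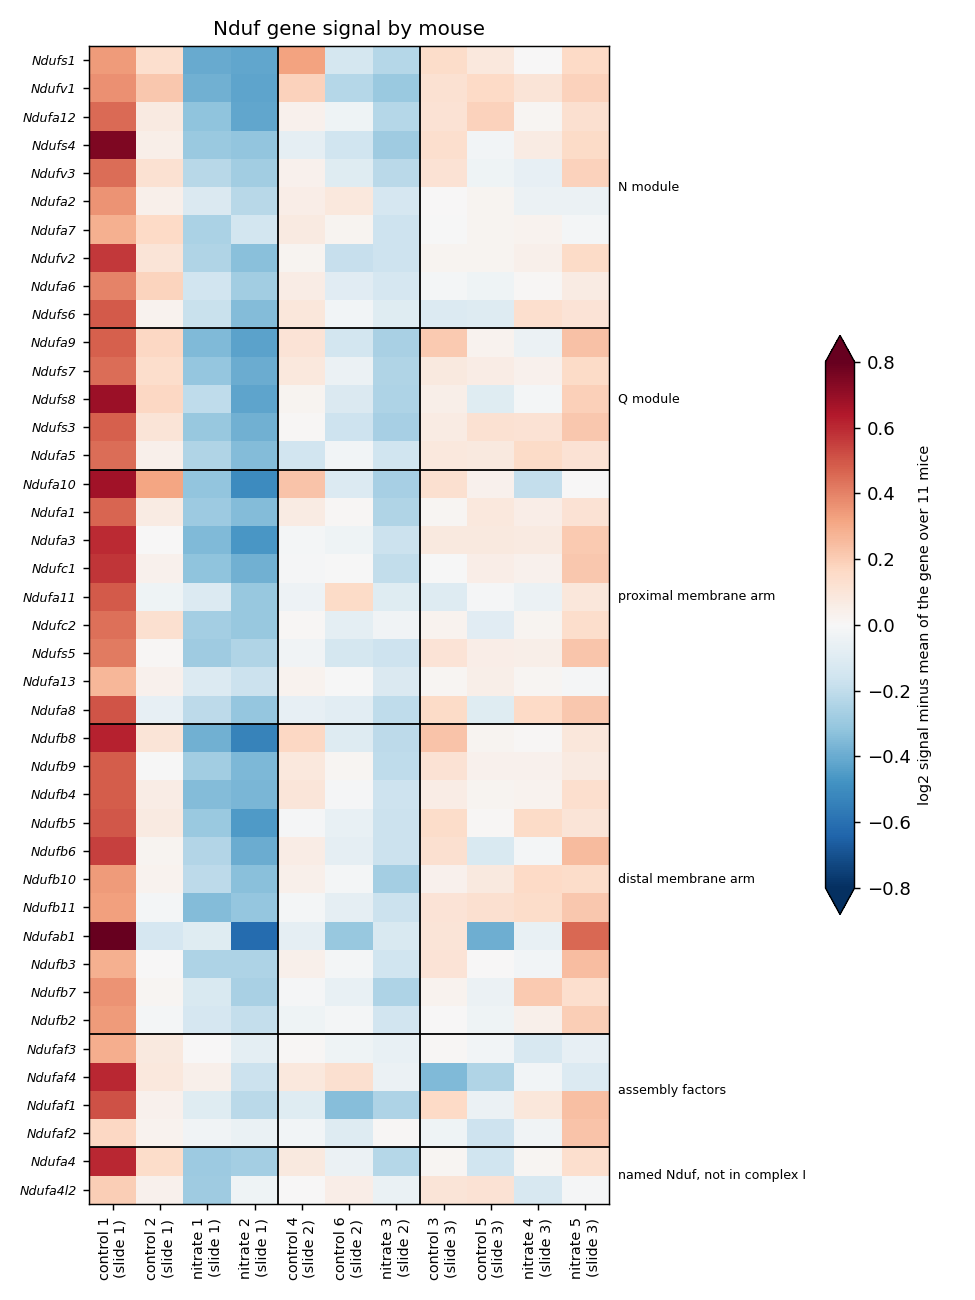
Log2 signal of 41 of the 42 genes (rows, by place in the complex) in each mouse (columns, by slide), minus the mean of the gene over the 11 mice, with values beyond 0.8 in the end color. Control 1 is the reddest column and nitrate treated mice 1 and 2, on the same slide, the bluest.

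The difference was not alike on the 3 slides. On slide 1, with nitrate treated mice 1 and 2 and controls 1 and 2, all 42 genes were lower in nitrate treated mice and the median was -0.57. On slide 2, with mouse 3 and controls 4 and 6, 39 were lower and the median was -0.17. On slide 3, with mice 4 and 5 and controls 3 and 5, 13 were lower and the median was 0.05. Of the 18294 detected names 8034, 8830 and 8205 were lower on slides 1, 2 and 3. For Ndufs7 the values were -0.65, -0.25 and 0.03, and for Ndufa10 they were -0.90, -0.33 and -0.17. In a fit with separate effects for each slide, the effect on slide 3 was higher than on slide 1 in 42 of 42 genes, in 34 with a P value of limma under 0.05 before adjustment, where 5.61% of all names had such a difference. After adjustment 0 of the 42 passed, against 0.0164% of all names. With slide as a block, 10 genes fell and the median was -0.22.

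**Figure D3:**
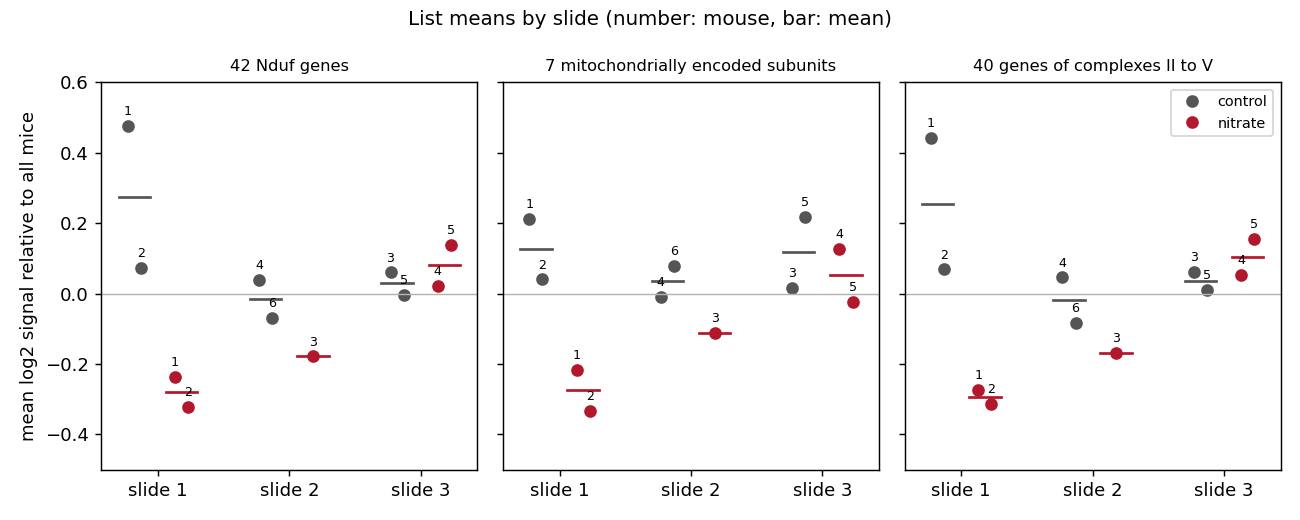
Mean log2 signal of 3 gene lists in each mouse, relative to the mean of all mice, by slide. Points are mice, with their number, and bars are means of a group on a slide. The Nduf mean is lower in nitrate treated mice on slides 1 and 2 and not on slide 3.

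The subunits that pump protons are among those encoded by mitochondrial DNA, which were measured by probes named ND1 to ND6 and ND4L. All 7 were lower in nitrate treated mice, with a median of -0.22, and 2 fell. ND1 had 14.02, 13.60, 13.98, 14.17 and 14.18 in nitrate treated mice and 14.56, 14.35, 14.14, 14.27, 14.32 and 14.39 in controls. Control 3 lay below nitrate treated mice 4 and 5, and the other controls lay above all nitrate treated mice. The difference was -0.35 (exact permutation test, p = 0.00866). ND3 fell by 0.26 (exact permutation test, p = 0.00866). In mm9 the probes of ND3 and ND4L are placed on chromosome 1, where a copy of mitochondrial DNA could bind them too, so these are uncertain. In the mean over these 7 genes control 1 had 0.21 and control 5 had 0.22, and without control 1 the median was -0.20, with 7 lower and 1 that fell. ND1 did not pass without nitrate treated mouse 2 (-0.25), nor ND3 without nitrate treated mouse 1, 2 or 3 or control 1, 5 or 6 (from -0.26 to -0.22). The number that fell was 0 without nitrate treated mouse 2 and 4 without mouse 4.

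Complexes II to V, which carry the electrons on to oxygen and make ATP, were measured by 40 genes. Of these 39 were lower and 8 fell, where 45.4% of all names were lower and 4.62% fell, and their median was -0.20. Their mean by mouse went from -0.31 in nitrate treated mouse 2 to 0.44 in control 1. Cyc1 of complex III fell by 0.38, Atp5o of ATP synthase by 0.35 and Sdhb of complex II by 0.33. In this list Atp5g1 was 0.18 higher (exact permutation test, p = 0.00649), below the limit on the fold change. Without control 1 the number that fell was 2 (3.27% of all names fell) and without nitrate treated mouse 5 it was 18 (5.31%). It was 3 without nitrate treated mouse 1 (3.61%), 2 (3.33%) or 3 (4.02%) or without control 3. Without control 2 or 4 it was 5, and without control 6 or nitrate treated mouse 4 it was 12. The share of all names was not taken without control 2, 3, 4 or 6 or nitrate treated mouse 4. The median was -0.13 without control 1. Without slide 1, 0 fell and 1 rose, where 2.04% of all names fell. Without slide 3, 27 fell, where 6.55% of all names did. Cyc1 did not pass in 7 of the 11 fits without 1 mouse and Sdhb in 6. Of 15 genes of the citric acid cycle and of mitochondrial mass 13 were lower and 4 fell, among them Ogdh, a dehydrogenase of that cycle, by 0.35 and citrate synthase, Cs, by 0.31. Of these 15, 1 fell without nitrate treated mouse 1 or 2, and 2 without mouse 3 or any of controls 1 to 5. Their median was -0.19, -0.12 without control 1 and -0.11 without mouse 2. Ogdh passed with each mouse left out, while Cs did not in 8 of the 11 fits. Ogdh did not pass without slide 1 (-0.12) or slide 2 (-0.35), nor did Cs (-0.10 and -0.34). Without slide 1, 6 of the 15 genes were lower and 0 fell, with a median of 0.03.

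Among 11 detected regulators of mitochondrial genes 7 were lower, 2 fell and 0 rose, with a median of -0.07. Without control 1, 6 were lower and 1 fell, with a median of -0.01, and with 1 mouse left out the median lay between -0.14 (without nitrate treated mouse 5) and 0.0025 (without mouse 2). Ppara, a receptor that drives fatty acid oxidation, fell by 0.45 (exact permutation test, p = 0.00866), and the coactivator Ppargc1b by 0.27 (exact permutation test, p = 0.0303). Ppara passed with each mouse left out, whereas Ppargc1b did not without any of nitrate treated mice 1 to 4 or controls 1, 2, 4 or 6 (from -0.28 to -0.16). Without the arrays of slide 1 neither Ppara (-0.22) nor Ppargc1b (-0.09) passed. For Ppargc1a the difference was -0.15 with a standard error of 0.36, for Esrra -0.07, for Tfam -0.06, for Nrf1 0.12 and for Gabpa 0.07, none of which passed. Gabpb1, a partner of the ETS factor Gabpa, was 0.17 higher (exact permutation test, p = 0.0108), below the limit on the fold change.

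Most of the 42 genes had bright probes, and names were compared within ranges of signal. Among the 829 names with a mean log2 signal above 14, 7.72% fell and the median difference was 0.04, whereas 5 of the 19 Nduf genes in that range fell, with a median of -0.22. Between 12 and 14, 5.95% of 1697 names and 4 of 14 Nduf genes fell, with medians of 0.02 and -0.24. Between 10 and 12, 0 of 4 Nduf genes and 4.26% of names fell, and up to 10, 0 of 5 and 4.33%, with Nduf medians of -0.15 and -0.12. For 8 genes with a pair of detected probes both probes were lower, and 0 of these probes passed both thresholds, so none of the genes that fell had a second probe under its Nduf name. The array holds 14 further probes that are described as complex I genes or their likenesses under other names. Of these 10 were detected, 9 were lower and 1 fell, with a median difference of -0.23.

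Lists of marker genes of other cells had lower medians in nitrate treated mice for some cell types and higher ones for others. Their part in the result was not tested. All 12 adipocyte genes were detected and lower, with a median of -0.38, and 7 fell, where 4.62% of all names did. Without nitrate treated mouse 1 it was 3 that fell, where 3.61% of all names did, and without control 3 it was 4. The mean of the 12 genes, relative to all mice, lay between -0.51 and -0.01 in nitrate treated mice and between -0.13 and 0.58 in controls. Adipoq, the adipocyte hormone adiponectin, had a mean of 14.79 ± 0.19 (SD, n = 6) in controls and of 14.30 ± 0.18 (SD, n = 5) after nitrate, without overlap. On slide 3 the adipocyte median was -0.34, where that of the Nduf genes was 0.05.

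Brown adipocytes are rich in mitochondria. All 11 of their genes were detected and 7 were lower, where 45.4% of all names were, with a median of -0.15. By the thresholds 2 fell and 1 rose, where 4.62% of all names fell and 4.27% rose. With 1 mouse left out the median lay between -0.30 (without nitrate treated mouse 5) and 0.0049 (without mouse 2) and was -0.05 without control 1, 2 or 3 genes fell, and between 0 (without mouse 5) and 2 (without mouse 1) rose. Their mean lay between -0.60 and 0.47 in nitrate treated mice and between -0.14 and 0.64 in controls. It was lowest in nitrate treated mouse 2 and highest in control 1, as was the Nduf mean, and nitrate treated mice 4 and 5 lay above controls 2 to 6 in it. By slide its median was -0.90, -0.28 and 0.43. Ucp1, the uncoupling protein of brown fat, was bright in all mice, with 15.07, 14.08, 14.97, 15.85 and 16.46 in nitrate treated mice and 15.91, 15.03, 14.28, 15.14, 14.96 and 15.04 in controls. Cox7a1 and Cox8b of this list are themselves subunits of complex IV.

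Of 11 heart muscle genes 9 were detected, 8 were higher in nitrate treated mice and 1 rose, or 3 without control 1, and Myl2 and Mybpc3 were not detected. By slide 7, 6 and 0 of the 9 were lower. Their mean was 3.33 in nitrate treated mouse 4, 2.79 in control 1 and 0.87 in nitrate treated mouse 5, and between -1.51 and -0.27 in the other mice. Myh6, the main myosin of the heart, had 14.64 in nitrate treated mouse 4, 14.05 in control 1 and 12.32 in nitrate treated mouse 5, and at most 10.63 in the others. Of 10 skeletal muscle genes 5 were detected and 0 passed, Acta1 with a difference of 0.33 among them, while Myh1, Myh2, Myh4, Mylpf and Actn3 were not detected. All 8 smooth muscle genes were higher and 1 rose, with a median of 0.15 and a difference of 0.15 in the smooth muscle myosin Myh11. Without control 1 the median was 0.09, with 1 lower, and it was 0.07 without nitrate treated mouse 1. The number that rose was 0 without control 1 or nitrate treated mouse 1 or 2 and 2 without nitrate treated mouse 4 or control 2, 4, 5 or 6. By slide it was 0.44, 0.11 and -0.03, with 5 of 8 lower on slide 3. Their mean was -0.34 in control 1 and between -0.07 and 0.23 in the others. Smooth muscle, the main cell of this vessel, was thus present by its markers in every mouse. The endothelial list had a median of -0.10, or -0.03 without control 1, and the macrophage list one of 0.10, or 0.01 without nitrate treated mouse 2. With all mice 0 genes of either list passed both thresholds, and without control 2 or nitrate treated mouse 5 1 endothelial gene rose.

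**Figure D4:**
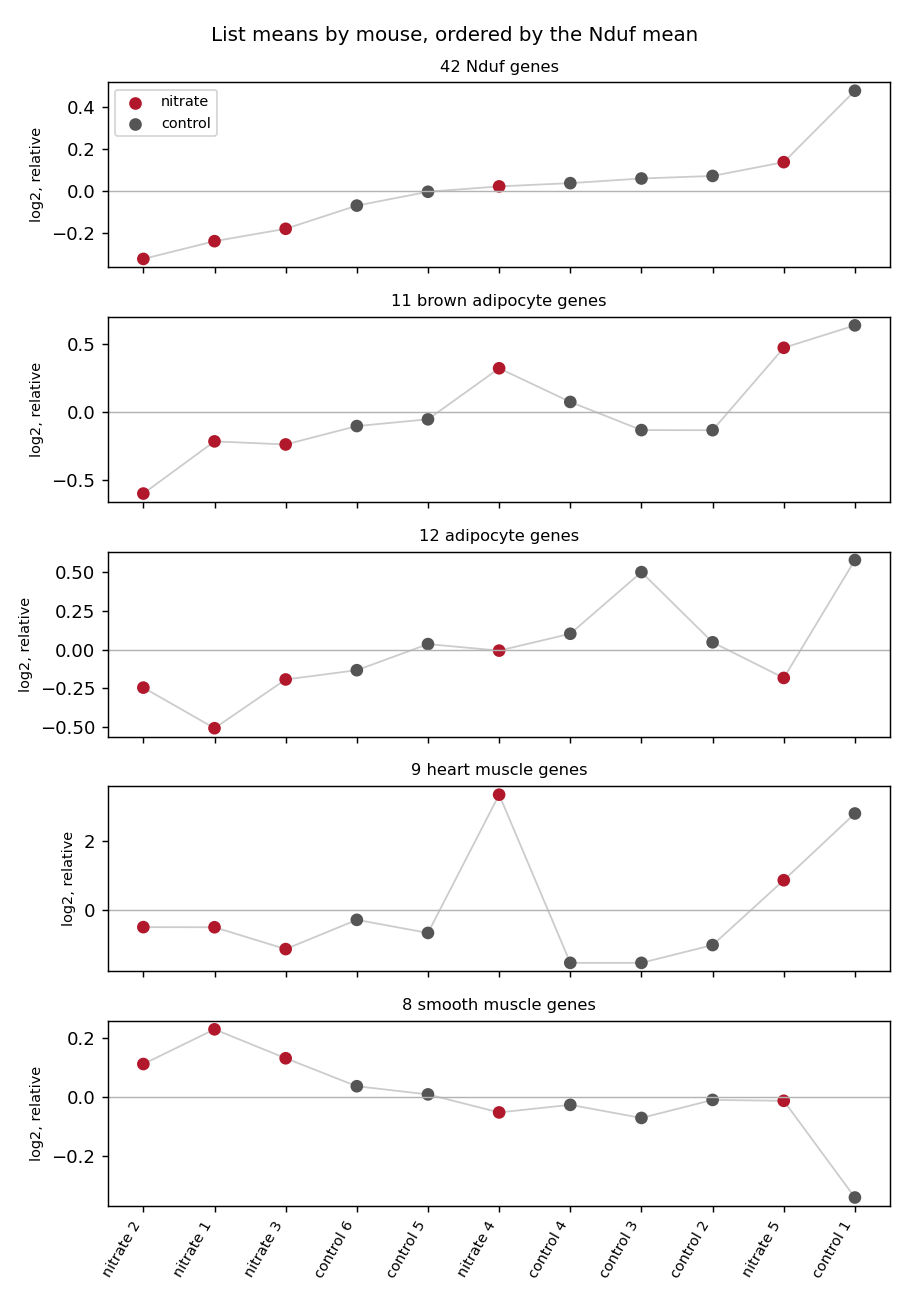
Mean log2 signal, relative to all mice, of the 42 Nduf genes and of 4 marker lists, with the mice ordered by the Nduf mean (red, nitrate; gray, control). Nitrate treated mouse 2 is lowest and control 1 highest in both the Nduf and the brown adipocyte list, and smooth muscle is lowest in control 1. Each panel has its own scale.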

How the data were processed

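RNA of the aorta was measured in 11 mice on one-color Agilent mouse arrays. The authors deposited the spot intensities of Feature Extraction 10.7.1.1, from which that software had subtracted the background, without normalization across arrays, and a table of log2 values that were quantile normalized and centred on the median of the arrays. From the intensities, control spots and spots flagged as outliers were dropped, values of the processed signal under 1 were set to 1, log2 was taken, repeat spots were averaged per probe, and quantile normalization followed over the 11 arrays. Detection required, in either group, at least 5 arrays on which the spots were found and stood well above background. A gene was represented by the brightest detected probe that carries its name, and probes described as the same gene under another name were not used for it. Positions are those of the files, in mm9, and the part of the gene that a probe covers was not analysed here. Groups came from the labels and were compared with lmFit and eBayes of limma 3.58.1 in R 4.3.3, with Benjamini-Hochberg adjustment over all detected probes, and with two-sided exact permutation tests. The script was tested on simulated data.

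The Nduf genes and all lists were chosen with earlier results of these data known, and no list test was made. The rule for named genes took Nduf genes with an unadjusted P value under 0.05, the core subunits encoded in the nucleus, the largest differences in each direction, Ndufa4, Ndufa4l2 and Ndufab1, and from the other lists genes with an unadjusted P value under 0.05 and 11 set genes, of which examples are given. Cox7a1 and Cox8b fall outside it. Some genes that the rule takes are counted in the totals but not reported here by name or drawn in the figures by gene. The alternatives tried were another normalization and background correction, 16 added to the signal, the log2 table as deposited, other rules for detection and flagged spots, the prior variance, slide and replicate number as blocks, the probe of each gene, and each array left out. Leaving out slides, values within slides and the shorter motif letters were chosen after seeing the data.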

Additional observations from a re-analysis of the deposited data

Results flagged for a closer look

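Among 46 groups of mice examined for the named genes and list means, 9 had a single mouse far from the others of its group, where chance gives about 1 in 20. The ratio given is the gap to the nearest mouse over the range of the group. Control 1 was high in 8 of them, which are Ndufa1 (0.834), Ndufb4 (0.784), Ndufa2 (0.771), Ndufb9 (0.760), Ndufab1 (0.695) and Ndufs8 (0.652), the mean of all Nduf genes (0.742) and the mean of complexes II to V (0.713). These are not independent, since the genes move together across mice. Nitrate treated mouse 5 was high in Ndufaf2 (0.783).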

How the results depend on the processing

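Under the alternatives for normalization, background, offset, deposited table, detection, flagged spots, prior variance, blocks and probe choice, between 7 and 10 Nduf genes fell. The replicate numbers do not pair the mice, and with them as a block 7 Nduf genes fell, with a median of -0.24. With each mouse left out in turn, the number of Nduf genes that fell lay between 2 and 19 and their median difference between -0.28 and -0.13, for complexes II to V between 2 and 18 and between -0.28 and -0.13, and for all transcripts, 2128 with all mice, between 1596 and 2424. Without a filter on dim probes 5 genes of complexes II to V and 3224 transcripts passed, and with normexp background correction 1218 transcripts. Without slide 1, 0 Nduf genes, 1 gene of complexes II to V and 1195 transcripts passed, the medians were 0.00109 and -0.00874, and 20 of the 42 Nduf genes changed direction, which left 21 lower. Among these were Ndufa4 (0.00238), Ndufab1 (0.259), Ndufaf1 (0.106), Ndufs3 (0.0121), Ndufs8 (0.0137) and Ndufv2 (0.0372). Without slide 3, 28 Nduf genes and 27 of complexes II to V fell, and Ndufaf2 had -0.0413. Ndufaf2 also changed direction without nitrate treated mouse 5 (-0.00268), and Ndufab1 (0.0732) and Ndufaf1 (0.0106) without control 1, and with any other single mouse left out 0 of the 42 did. Ndufv1 did not pass without the filter on dim probes (-0.303), Ndufs7 with normexp background correction (-0.256), and Ndufs7 (-0.312) and Ndufb9 (-0.291) with the replicate block. With each mouse left out, Ndufaf2 ranged from -0.00268 to 0.0851 and Ndufab1, measured by a dim probe, from -0.297 to 0.0732. The cause of these changes was not tested.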
